A study of Mus musculus with 15 samples.

Results

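The mitochondrial ribosomal proteins were followed through every comparison of the series. They were chosen by name, as all genes whose symbol begins with Mrpl or Mrps and a number, with pseudogenes left out. The naming rule uses no measured value, but it was set with earlier results of these data known. The rule found 77 genes among the 14583 genes of the 4 tables, and each of the 77 was listed in all 4 tables. GENCODE M21 holds 78 protein-coding genes with such names, and the remaining one, Mrpl58, appeared in the tables under its older symbol Ict1. Of the 77 genes, 48 have a large subunit name (Mrpl) and 29 a small subunit name (Mrps).

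Mitochondria keep their own ribosome, which translates the few mRNAs of mitochondrial DNA into core subunits of the respiratory chain and of ATP synthase. Its RNA is made in the organelle, but all of its proteins are encoded in the nucleus, translated in the cytosol and imported, so their genes are spread over most chromosomes. Some of these proteins descend from those of the bacterial ribosome, and others were added in the mitochondrial lineage. Ribosome assembly also needs GTPases, helicases and rRNA methyltransferases, and translation needs its own factors and aminoacyl-tRNA synthetases.

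The samples were 15 cultures of the mouse breast cancer line 4T1, in 5 groups of 3. For the 2D cultures, kept in 2% FBS, the recipients were Padi4 KO cells, which were given nuclear expulsion products (NEPs, called exsporosi in the labels), apoptotic debris (apoDBs) or vehicle. NEPs came from iCasp9 Padi4+/+ donors and apoDBs from iCasp9 Padi4 -/- donors, both induced with AP1903, at the debris of 5000 donor cells per 500 recipient cells. Cells that were Padi4 WT or Padi4 KO, grown as spheroids, spent 3 days in ultralow attachment plates and 7 more days with 75% Matrigel. Padi4 is the enzyme that citrullinates histone H3, and the genotype of the 2D recipients is taken from the study's methods, which describe CRISPR knockout with puromycin selection. Elsewhere the study names several Padi4 KO clones of 4T1, and which clone or pool was sequenced is not given in the sources used here.

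The deposited limma tables, which were read in place of values per sample, give 1 fold change and 1 unadjusted p-value per gene and comparison. The level in each sample, the spread between replicates, the standard error and the depth are therefore unknown, and how many of the 3 samples showed a direction cannot be given. P-values were adjusted over the whole of each table (Benjamini-Hochberg false discovery rate, FDR), and a gene was called higher or lower at an FDR below 0.05. Nothing in the labels says that the 3 samples of a group were separate cultures, so the p-values measure the spread between these samples, which may be technical. Padi4 itself had a log2 fold change of 2.06 in Padi4 WT against KO spheroids (FDR 0.000542), in the direction of the labels. In 2D its log2 fold change was 0.15 for NEPs and -0.84 for apoDBs relative to vehicle (FDR 0.109 and 0.000324), and 1.01 for NEPs relative to apoDBs (FDR 1.19e-06). RNA of the recipients cannot be told apart from RNA carried by the added debris, and fewer cells of a type cannot be told apart from less RNA per cell. The epithelial genes Krt8, Krt18, Epcam and Cdh1 were listed in all 4 tables, and the immune genes Ptprc and Adgre1 and the endothelial gene Pecam1 in none.

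RefSeq promoter windows (GRCm38.p6, 250 bases before to 50 after the start) were found for 68 of the 77 genes, and not for Mrpl4, Mrpl13, Mrpl15, Mrpl19, Mrpl38, Mrpl54, Mrps28, Mrps34 and Mrps35. The windows were searched on both strands for CCGGAAG, the core bound by ETS factors such as GABP, for GCATGCGC, the core of the NRF1 site, and for AAGATGG, the core of the YY1 site. These factors are known regulators of nuclear genes of mitochondria. The 4 windows below belong to 3 of the 5 genes that rose most with NEPs against vehicle and to Mrps6, the gene with the highest log2 fold change in spheroids. The windows of the other genes among those 5, Mrpl47 and Mrpl1, held none of the 3 words and are not printed. Capitals mark the motifs.
Mrpl9 (chr3:94443086-94443385, plus strand): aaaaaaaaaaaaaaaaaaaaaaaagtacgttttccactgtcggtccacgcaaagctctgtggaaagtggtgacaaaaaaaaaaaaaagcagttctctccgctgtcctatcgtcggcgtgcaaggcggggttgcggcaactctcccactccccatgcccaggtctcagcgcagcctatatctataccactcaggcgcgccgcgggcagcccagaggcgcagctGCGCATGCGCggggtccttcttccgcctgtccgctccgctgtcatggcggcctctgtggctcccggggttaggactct
Mrpl33 (chr5:31613701-31614000, plus strand): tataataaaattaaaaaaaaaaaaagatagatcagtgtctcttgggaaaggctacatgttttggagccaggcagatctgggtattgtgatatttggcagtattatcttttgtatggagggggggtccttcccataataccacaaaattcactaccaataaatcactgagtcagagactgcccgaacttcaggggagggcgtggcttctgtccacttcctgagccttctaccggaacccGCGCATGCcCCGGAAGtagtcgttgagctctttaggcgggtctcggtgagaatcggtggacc
Mrps18c (chr5:100798509-100798808, plus strand): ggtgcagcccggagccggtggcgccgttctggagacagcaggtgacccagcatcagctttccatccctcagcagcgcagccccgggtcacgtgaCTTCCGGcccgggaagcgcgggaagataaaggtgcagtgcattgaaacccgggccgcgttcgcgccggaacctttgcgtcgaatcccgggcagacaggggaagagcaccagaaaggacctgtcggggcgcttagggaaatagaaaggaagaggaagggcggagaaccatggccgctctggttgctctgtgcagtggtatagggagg
Mrps6 (chr16:92058086-92058385, plus strand): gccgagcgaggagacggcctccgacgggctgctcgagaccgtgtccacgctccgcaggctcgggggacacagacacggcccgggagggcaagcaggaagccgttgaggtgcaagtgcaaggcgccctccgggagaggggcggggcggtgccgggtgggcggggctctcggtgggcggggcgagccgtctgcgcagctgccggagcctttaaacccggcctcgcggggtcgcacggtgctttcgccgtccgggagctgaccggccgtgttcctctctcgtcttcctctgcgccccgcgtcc

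In the window of Mrpl33 the NRF1 and ETS cores lay 1 base apart, in that of Mrpl9 the NRF1 core was read on both strands, and the window of Mrps6 held none of the 3 words. CCGGAAG was in 33.8% of the 74 windows of the members and in 8.86% of all 32851 windows of the table. GCATGCGC was in 10.8% and 2.71%, and AAGATGG in 17.6% and 6.34%. Against the 11855 windows of genes listed in the tables, the shares were 17.2%, 5.25% and 7.09%. The members' windows were also rich in CpG, with a median of 21.5 CpG against 7 in all windows, and the words searched include CpG in 2 of 3 cases. A match is a description of the letters and not a measured site.

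Calls were found both among genes with the ETS core and among those without it. With NEPs against vehicle, 9 of the 25 members with CCGGAAG were called higher and 3 lower, and the 43 without it gave 15 and 3. In spheroids the counts were 4 higher and 2 lower with the core, and 5 higher and 6 lower without it. For the 8 members with GCATGCGC the median change was 0.24 on the log2 scale after NEPs relative to vehicle, and for the 60 without it 0.09. The order was the opposite after apoDBs relative to vehicle (0.10 with the word and 0.22 without it) and in spheroids (-0.09 and 0.05). These differences were not tested.

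Addition of NEPs to Padi4 KO cells moved the mitochondrial ribosomal proteins by small amounts, and more of them rose than fell. Against vehicle, 26 of the 77 genes were called higher and 8 lower, which is 33.8% and 10.4%. Over all 13541 genes of that table, 24.3% were called higher and 31.1% lower. The median log2 fold change was 0.09 for the members and -0.05 for all genes, and 60 of the 77 members lay above the latter. No member changed by 2-fold, a size that 11.7% of all genes exceeded, and the members ran from -0.57 to 0.80 on the log2 scale. At an FDR below 0.01 the counts were 18 higher and 2 lower, and Mrpl34, Mrpl23 and Mrpl57, described next, were no longer called. The shares of all genes at that limit were not computed.

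The 5 genes that rose most with NEPs against vehicle were Mrpl47, Mrps18c, Mrpl33, Mrpl9 and Mrpl1. Mrpl47 and Mrpl9 lie on chromosome 3, and Mrps18c, Mrpl33 and Mrpl1 on chromosome 5. Other genes of both chromosomes are described below. Mrpl47 (ENSMUSG00000037531.8, chromosome 3 of GRCm38, 32725397 to 32737605), a large subunit protein that sits near the exit of the peptide tunnel, had a fold change of 1.74 (log2 0.80, FDR 7.86e-05). Mrps18c, the member of the S18 family that occupies the bacterial position in the small subunit, had a log2 fold change of 0.73 (FDR 9.06e-05). The large subunit proteins Mrpl33, Mrpl9 and Mrpl1, the last of which belongs to the stalk at the tRNA exit, had log2 fold changes of 0.63, 0.56 and 0.53. Exons of Ndufb5 and Actl6a cover 24.2% of the exon bases of Mrpl47, and those of Gm43511 cover 23.2% of Mrps18c. The counting method is not stated, so reads of overlapping genes may be shared.

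The 5 genes that fell most against vehicle were Mrpl4, Mrpl34, Mrps18b, Mrpl23 and Mrpl57. Mrpl4, whose protein lines the exit tunnel, had a fold change of -1.49 on the signed scale of the tables, in which minus 1.49 stands for a decrease by that factor (log2 -0.57, FDR 0.000514). Mrpl34 had a log2 fold change of -0.37 (FDR 0.0197) and Mrps18b, the S18 copy particular to the mitochondrial small subunit, of -0.35 (FDR 0.00111). Mrpl23, a protein of the tunnel exit, and Mrpl57 followed at -0.33 and -0.25. Within the S18 family the values thus spread from the second highest to the third lowest called gene, while Mrps18a, which sits in the large subunit despite its name, was at -0.03 (FDR 0.809).

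**Figure D1:**
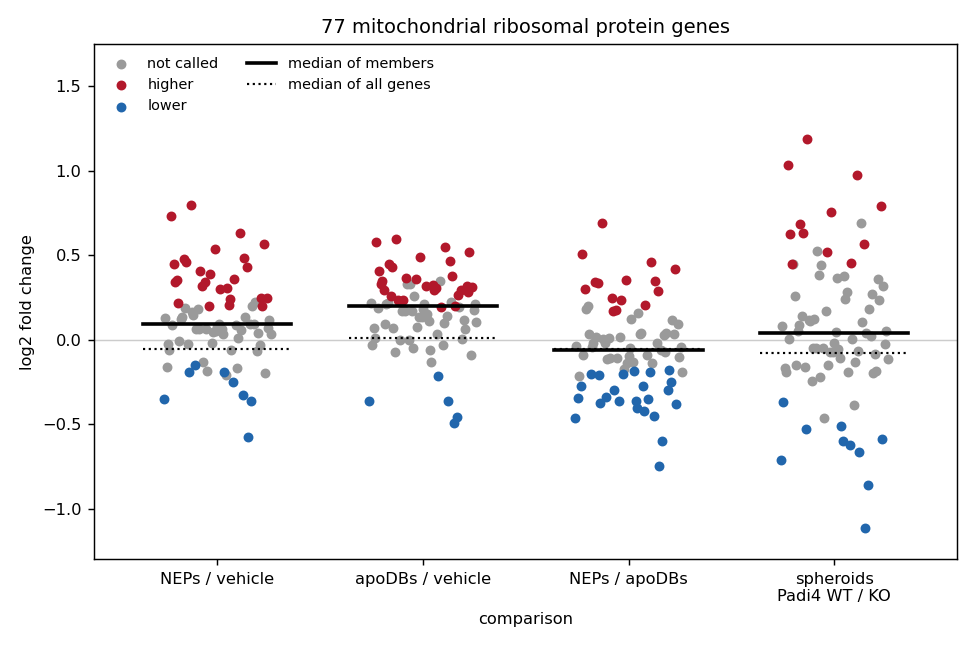
Log2 fold change (y axis) of each of the 77 genes in the 4 comparisons (x axis). Each point is 1 gene, red where called higher, blue where called lower and grey where not called at an FDR below 0.05, with the median of the members as a solid line and that of all genes as a dotted line; horizontal scatter has no meaning. The spread was widest in spheroids, from -1.12 to 1.19.

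Apoptotic debris against the same vehicle samples gave 29 members higher and 5 lower, or 37.7% and 6.49%. Of all 13307 genes in that table, 22.9% were called higher and 22.6% lower. The median was 0.20 for the members and 0.01 for all genes on the log2 scale, and the range was -0.49 to 0.59. Mrpl18, Mrps6, Mrpl49, Mrpl41 and Mrpl27 rose most, with log2 fold changes of 0.59 (FDR 0.000385), 0.58 (FDR 0.000214), 0.55 (FDR 0.000341), 0.52 (FDR 0.000978) and 0.49 (FDR 0.000749). Mrpl18 is the homologue of a protein that binds 5S rRNA in bacteria, and Mrpl27 reaches towards the peptidyl transferase centre. The 5 genes that fell were Mrps10, Mrps18b, Mrpl37, Mrpl4 and Mrpl24. Mrps10, a small subunit protein, had the lowest value at -0.49 (FDR 0.000405), and Mrpl24, with -0.22 (FDR 0.0346), the smallest change of the 5.

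With apoDBs against vehicle, the calls and medians of genes other than the members moved with transcript length. The members had a median summed exon length of 2255 bases against 4110 for the other genes in the table of apoDBs against vehicle. With all genes divided by length into 4 equal groups, 39 of the 77 fell in the shortest group. The other genes of that group had a median of 0.20 on the log2 scale in the same comparison, 32.2% of them were called higher and 12.1% lower, and the 39 members there had a median of 0.22, with 16 higher and 2 lower. In the longest group the other genes had a median of -0.10, and 14.2% of them were called higher and 33.6% lower. The 12 members there had a median of 0.17, with 5 higher and 1 lower. With NEPs against vehicle the shortest group of other genes had a median of 0.02, and the 39 members one of 0.09. With NEPs against apoDBs, 4 members were higher and 15 lower in the shortest group, and 6 higher and 3 lower in the longest. The medians of the other genes there were -0.15 and -0.01, with 32.4% and 30.2% called lower and 15.4% and 30.0% called higher. The part of length in these results was not tested. At an FDR below 0.01 the apoDBs counts were 16 higher and 3 lower, and the shares of all genes at that limit were not computed.

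The direct comparison of NEPs with apoDBs called 15 members higher and 24 lower, or 19.5% and 31.2%, against 23.4% and 31.4% of all 13419 genes. The shares of the members thus lay near or below those of all genes, and both medians were -0.06 on the log2 scale. The lowest value belonged to Mrps6 (ENSMUSG00000039680.10, chromosome 16, 92058270 to 92112227), a small subunit protein, at a signed fold change of -1.68 (log2 -0.75, FDR 3.58e-06). Mrpl34, Mrpl41, Mrpl53 and Mrpl14 followed with log2 fold changes of -0.60, -0.46, -0.45 and -0.42, and 88.0% of the exon bases of Mrpl53 overlap other genes. At the other end stood Mrpl47 at 0.69 (FDR 0.000107), Mrpl9 at 0.50 (FDR 3.79e-05), Mrpl33 at 0.46, Mrps18c at 0.42 and Mrpl1 at 0.35. This comparison shares its samples with both comparisons against vehicle. Relative to vehicle, Mrps6 was at -0.16 on the log2 scale after NEPs (FDR 0.0578) and at 0.58 after apoDBs. Mrpl47 was at 0.80 after NEPs and at 0.12 after apoDBs (FDR 0.432).

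**Figure D2:**
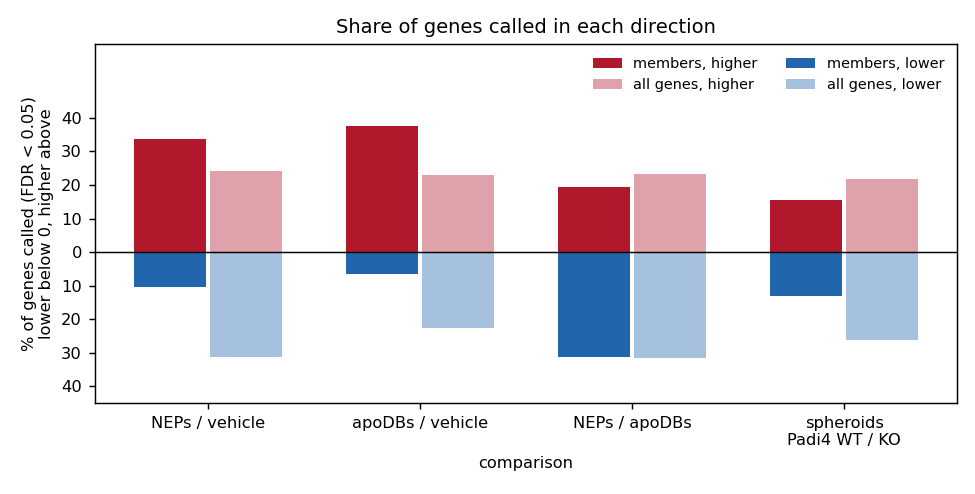
Percent of genes called (y axis, higher above 0 and lower below it, FDR below 0.05) in each comparison (x axis), for the 77 members in full colour and for all genes of the table in pale colour. Called shares of the members were above those of all genes for higher genes in both comparisons with vehicle and below them for lower genes in the same comparisons.

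Spheroids of Padi4 WT cells against Padi4 KO cells gave fewer calls among the members than among all genes in both directions, but the largest changes. There were 12 members called higher and 10 lower, or 15.6% and 13.0%, against 21.7% and 26.1% of all 14053 genes. The median was 0.04 for the members and -0.08 for all genes on the log2 scale. The fold change exceeded 2 for 3 members, Mrps6, Mrpl9 and Mrps5, and for 28.9% of all genes. At an FDR below 0.01 the counts were 5 higher and 6 lower, and the shares of all genes at that limit were not computed.

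Mrps6 had the highest value in spheroids, with a fold change of 2.28 (log2 1.19, FDR 0.000286). It was followed by Mrpl9 (ENSMUSG00000028140.13, chromosome 3, 94443318 to 94451130) with a log2 fold change of 1.04 (FDR 0.000429), Mrps21 with 0.97 (FDR 0.00107), Mrpl13 with 0.79 (FDR 0.00108) and Mrps28 with 0.76 (FDR 0.00424). All of these are proteins with counterparts in the bacterial ribosome, 3 of the small and 2 of the large subunit. For Mrps6, 19.9% of exon bases are shared with Gm49711 and the transporter gene Slc5a3.

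The lowest value was that of Mrps5 (ENSMUSG00000027374.12, chromosome 2, 127587222 to 127606829), a small subunit protein whose bacterial counterpart acts in decoding accuracy, with a signed fold change of -2.17 (log2 -1.12, FDR 0.000162). Mrpl57 had a log2 fold change of -0.86 (FDR 0.00266), Mrpl15 of -0.71 (FDR 0.00247), Mrps31 of -0.66 (FDR 0.00672) and Mrpl35 of -0.62 (FDR 0.0096). Genes of the same subunit thus moved in opposite directions, and neither subunit moved as a block. Of the 48 genes with large subunit names, 6 were higher and 6 lower, or 12.5% each. Of the 29 with small subunit names, 6 were higher and 4 lower, or 20.7% and 13.8%. Over all genes of the spheroid comparison, 21.7% were called higher and 26.1% lower.

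**Figure D3:**
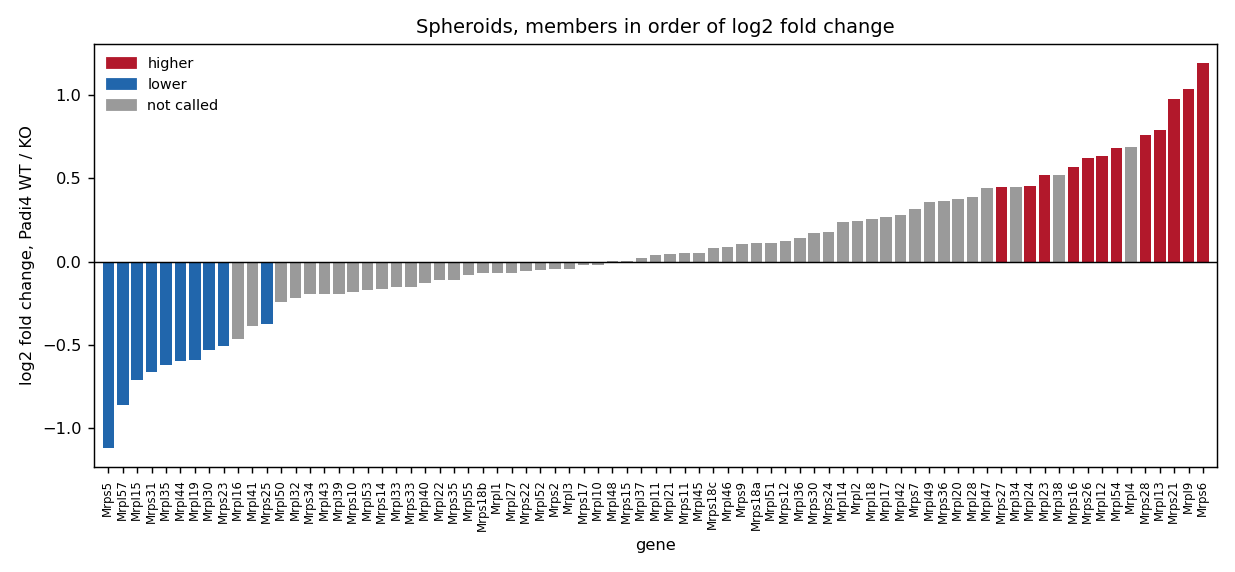
Log2 fold change of Padi4 WT against Padi4 KO spheroids (y axis) for the 77 genes in order of value (x axis), red where called higher, blue where called lower and grey where not called. The bars run from -1.12 (Mrps5) to 1.19 (Mrps6), and Mrpl4 at 0.69 was not called (FDR 0.0692) although its bar is longer than those of several called genes.

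The study's methods set limits of 2 for the size of the log2 fold change and of 0.0001 for the FDR. No member passed both in any of the 4 comparisons, which 359, 31, 296 and 569 genes passed in the tables of NEPs against vehicle, apoDBs against vehicle, NEPs against apoDBs and spheroids. The spheroids share no library with the 2D cultures. As a description across the 77 members, which are genes of the same libraries, the spheroid changes and those after NEPs relative to vehicle had a Spearman's rho of 0.18, beside 0.34 over the 13062 genes of both tables. For Mrps6 the values were 1.19 in spheroids and -0.16 with NEPs against vehicle, and for Mrpl9 they were 1.04 and 0.56.

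By evolutionary origin, the large subunit proteins particular to mitochondria and those with bacterial counterparts had different counts, though the difference was not tested. With apoDBs against vehicle, 11 of the 21 large subunit proteins particular to mitochondria were higher and 1 lower (median log2 fold change 0.29), and of the 29 with bacterial counterparts 7 were higher and 2 lower (median 0.17). With NEPs against vehicle the counts were 6 higher and 2 lower of the former, and 13 higher and 4 lower of the latter. With NEPs against apoDBs they were 2 higher and 11 lower (median -0.18), and 10 higher and 8 lower (median -0.02). The shares higher there were 9.52% and 34.5%, beside 23.4% of all genes. The shares lower were 52.4% and 27.6%, beside 31.4%. In the small subunit, 8 of 16 proteins with bacterial counterparts were higher and 1 lower with apoDBs against vehicle, and 3 of the 10 particular to mitochondria were higher and 1 lower. In spheroids, 4 of the 16 were higher and 1 lower, and 2 of the 10 were higher and 3 lower. The shares higher in spheroids, 25% and 20%, lie near the 21.7% of all genes, and the 30% lower of the 10 lies near 26.1%. Against vehicle, the shares higher ran from 20% to 44.8% with NEPs and from 24.1% to 52.4% with apoDBs, beside 24.3% and 22.9% of all genes.

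Some members occupy special places in the ribosome. Mrpl10, Mrpl11 and Mrpl12 form the stalk that recruits translation factors. Mrpl11 was higher with NEPs (log2 0.24, FDR 0.0161) and with apoDBs (0.34, FDR 0.00495) against vehicle, Mrpl12 was higher in Padi4 WT spheroids (0.63, FDR 0.0423), and Mrpl10 ran from -0.09 to 0.07 and passed in no comparison. Mrps30, which lies in the large subunit despite its name, was higher with NEPs against vehicle and against apoDBs, at 0.25 in both (FDR 0.00628 and 0.00869). Mrps36, which matches the naming rule but is a subunit of the alpha-ketoglutarate dehydrogenase complex, was called in no comparison, with log2 fold changes from -0.13 to 0.36. Mrpl58, the peptidyl-tRNA hydrolase listed as Ict1, had values from -0.08 to 0.04, and none passed.

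The other proteins of mitochondrial translation were described by the same counts. Of the 5 ribosomal subunits with other kinds of name (Dap3, Chchd1, Aurkaip1, Ptcd3 and Gadd45gip1), none was called in spheroids. With NEPs against vehicle 1 was higher and none lower, Chchd1 at 0.35 (FDR 0.00132), named after its value was seen, and with apoDBs against vehicle 1 was higher and 1 lower. Of 13 translation factors, 1 was higher and 4 lower with NEPs against vehicle, and 4 were lower and none higher with apoDBs against vehicle. Of 17 mitochondrial aminoacyl-tRNA synthetases, which charge tRNAs in the organelle, 5 were lower with NEPs and 7 with apoDBs against vehicle, and none was higher in either. Of 21 assembly and rRNA modification proteins, none was higher and 5 were lower with NEPs against vehicle, and 2 were higher and 5 lower with apoDBs. The lists of factors, synthetases and assembly proteins are short. With NEPs their shares of lower genes, in that order, were 30.8%, 29.4% and 23.8%, beside 31.1% over all genes. With apoDBs they were 30.8%, 41.2% and 23.8%, beside 22.6%. Their shares of higher genes were 7.69%, 0% and 0% with NEPs, beside 24.3%, and 0%, 0% and 9.52% with apoDBs, beside 22.9%.

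In spheroids the lists of factors, assembly proteins and synthetases held lower genes and no higher ones, beside 21.7% of all genes called higher. The lists are short, and this difference was not tested. The translation factors gave 4 lower of 13, led by the initiation factor Mtif2 (log2 -0.81, FDR 0.00317), the release factor family member Mtrf1 (-0.60, FDR 0.0496) and the elongation factor Tsfm (-0.46, FDR 0.0339). The assembly list gave 7 lower of 21, led by the methyltransferase Mettl15 (-0.75, FDR 0.0331) and the GTPases Mtg2 (-0.64, FDR 0.015) and Mtg1 (-0.58, FDR 0.0296). The synthetases gave 3 lower of 17, which were Ears2 (-0.84, FDR 0.00825), Mars2 (-0.72, FDR 0.0285) and Rars2 (-0.59, FDR 0.0236). Among the 5 genes of mitochondrial transcription and its helicase, Tfb2m was lower (-0.61, FDR 0.0106). The lower shares of these lists, between 17.6% and 33.3%, surround the 26.1% of all genes.

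Of 9 regulators of nuclear genes of mitochondria, 4 were higher in Padi4 WT spheroids and none was lower, beside 21.7% of all genes called higher. The coactivator Ppargc1a had a log2 fold change of 3.90 (FDR 0.00156) and is listed in the spheroid table alone, its relative Ppargc1b had 0.97 (FDR 0.0346), Myc had 0.48 (FDR 0.0465) and Nrf1 had 0.36 (FDR 0.0285). The 13 mRNAs of mitochondrial DNA, which this ribosome translates, included 3 that were lower in Padi4 WT spheroids, mt-Nd6 (-1.14, FDR 0.00865), mt-Atp6 (-1.01, FDR 0.00525) and mt-Nd5 (-0.44, FDR 0.0431). These are 23.1% of the list, near the 26.1% of all genes called lower. With NEPs against apoDBs 7 of the 13 were higher and none lower, beside 23.4% of all genes called higher. The 13 had a median log2 fold change of 0.70 and a range from -0.11 to 1.62. With NEPs against vehicle 4 were higher and none lower (30.8% and 0%, beside 24.3% and 31.1% of all genes), at a median of 0.08. With apoDBs against vehicle none was higher and 2 were lower (0% and 15.4%, beside 22.9% and 22.6%), at a median of -0.21.

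The cytosolic ribosomal proteins had other counts than the mitochondrial ones. Of the 84 listed genes, 7 were higher and 43 lower with NEPs against vehicle, at a median log2 fold change of -0.21, where the 77 mitochondrial genes had 26 and 8 and a median of 0.09. The cytosolic shares were 8.33% and 51.2%, beside 24.3% and 31.1% of all genes. With apoDBs against vehicle 14 were higher and 1 lower (16.7% and 1.19%, beside 22.9% and 22.6% of all genes). With NEPs against apoDBs 5 were higher and 63 lower (5.95% and 75%, beside 23.4% and 31.4%). In spheroids 10 were higher and 7 lower (11.9% and 8.33%, beside 21.7% and 26.1%). The difference between the sets was not tested, and cytosolic genes have many processed pseudogenes that can share their reads.

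**Figure D4:**
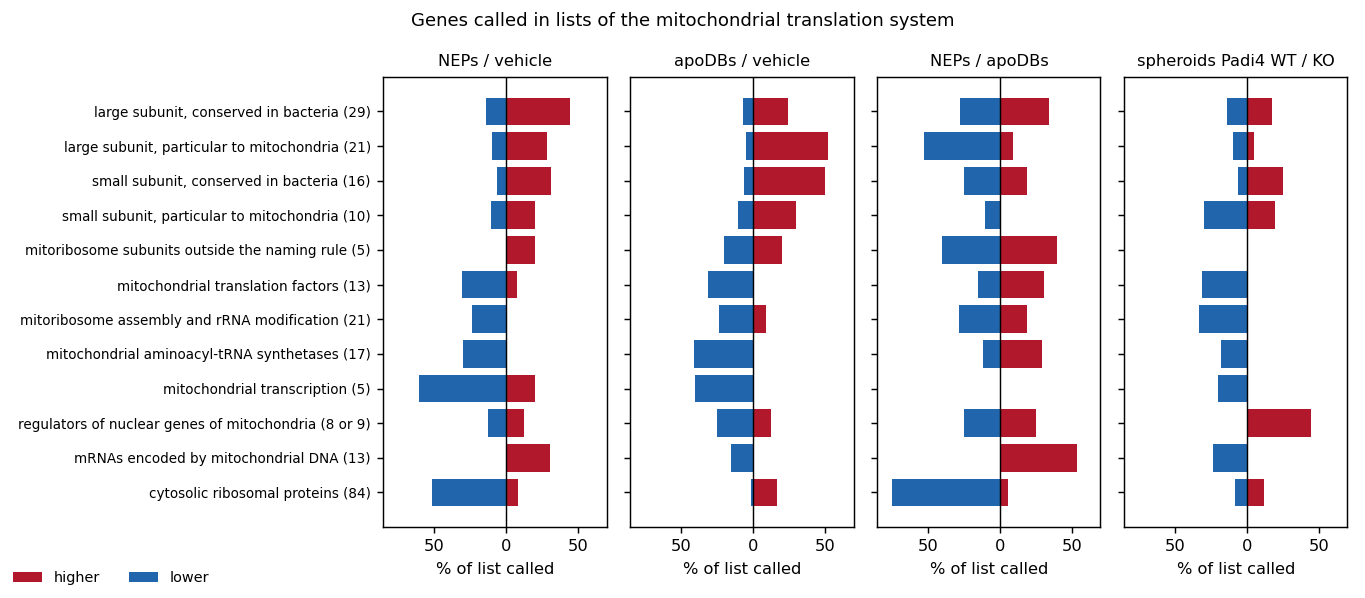
Percent of each list called higher (red, right of 0) or lower (blue, left of 0) at an FDR below 0.05 (x axis) in the 4 comparisons (panels), with the number of listed genes in parentheses. The upper 4 rows hold the mitochondrial ribosomal proteins by subunit and origin, where higher genes were more numerous than lower ones against vehicle, and the aminoacyl-tRNA synthetases show none higher there.

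Position on the chromosome moved with the members' values. For each member, the median log2 fold change of the 50 nearest other genes of the table along the chromosome was computed, 25 on each side. Across the 77 members, Spearman's rho between a gene and its neighbourhood was 0.55 in spheroids and 0.51 for NEPs relative to apoDBs. Relative to vehicle it was 0.47 for NEPs and 0.18 for apoDBs. The same measure over all other genes was 0.22, 0.27, 0.30 and 0.13, and points from the same stretch of a chromosome share libraries and neighbours. In spheroids, 20 of the 22 called members had the sign of their neighbourhood, and the exceptions, named after their values were seen, were Mrps6 and Mrps16. The number was 34 of 39 with NEPs against apoDBs, 21 of 34 with NEPs against vehicle and 21 of 34 with apoDBs against vehicle. Over all 77 members it was 57 in spheroids and 60 with NEPs against apoDBs. Against vehicle it was 41 with NEPs and 43 with apoDBs. How many other genes had the sign of their neighbourhood was not computed, so these counts have no share of all genes beside them.

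Among 20 chromosomes, chromosome 3 had the highest median of other genes in 3 comparisons, at 0.35 in spheroids and at 0.30 after NEPs relative both to vehicle and to apoDBs. It holds 5 members, Mrps28, Mrpl47, Mrpl24, Mrpl9 and Mrps21. In spheroids all 5 had positive values, from 0.44 to 1.04, and 4 were called higher, beside 39.9% of the other genes on that chromosome. With NEPs against vehicle all 5 were again positive, from 0.07 to 0.80, and 4 were called higher, beside 55.2% of the other genes on that chromosome. With apoDBs against vehicle 2 of the 5 were higher and 1 lower, beside 23.9% and 22.5% of the other genes there. Thus 4 of the 12 members called higher in spheroids lie on 1 chromosome. On chromosome 5, all 4 members were higher with NEPs against vehicle, beside 41.6% of the other genes there, whose median was 0.17. All 4 were also higher with NEPs against apoDBs, beside 34.9% of the other genes there. With apoDBs against vehicle 1 of the 4 was higher, beside 31.3%, and in spheroids none was called, beside 30.2% of the other genes called higher. On chromosome 1, the 5 members had a median of -0.53 in spheroids with 3 lower and none higher, beside 34.4% of the other genes there called lower, and the 50 neighbours of Mrpl15 had a median of -1.19, below the -0.71 of Mrpl15 itself. On chromosome 6, 3 of 7 were lower and none higher, beside 38.0% of the other genes there called lower, whose median was -0.33.

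Relative to their neighbourhoods, 67 of the 77 members lay higher with NEPs against vehicle, by a median of 0.24 on the log2 scale, and 65 lay higher with apoDBs against vehicle, by a median of 0.19. In spheroids 49 lay higher, by 0.14, and with NEPs against apoDBs 41, by 0.01. The same counts and medians for other genes were not computed, so they cannot be called particular to the members. Mrps6 stood farthest from its neighbourhood in spheroids, at 1.19 beside -0.44. The part of chromosome position in these results was not tested.

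**Figure D5:**
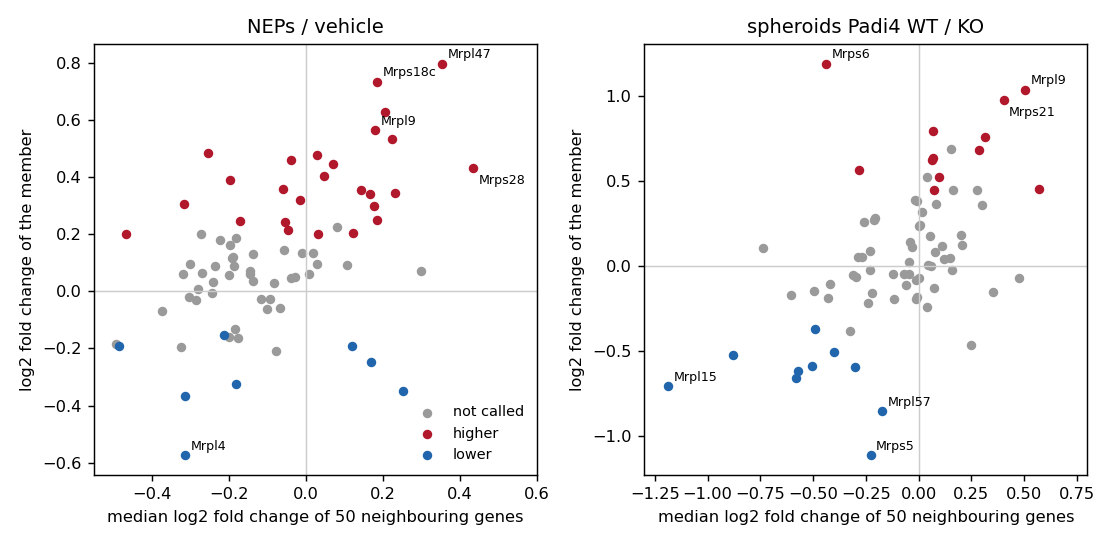
Log2 fold change of each member (y axis) against the median log2 fold change of its 50 neighbouring genes (x axis), with NEPs against vehicle (left) and in spheroids (right), red where called higher, blue where called lower and grey where not called. Most called members in spheroids lie in the lower left and upper right corners, with Mrps6 at the upper left.

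Many of these genes start close to another gene on the opposite strand. A protein-coding partner on the other strand starts within 1000 bases of 33 members, and 30 of the partners were listed in each table. Over all 30 pairs with a listed partner, 17 had the same sign in spheroids. The number was 19 with NEPs and 12 with apoDBs against vehicle, and 21 with NEPs against apoDBs. The same numbers for other genes, and their share with such a partner, were not computed. Of the pairs in which both genes were called in spheroids, 4 of 5 moved in the same direction. The counts of such pairs were 4 of 5 for NEPs and 4 of 10 for apoDBs relative to vehicle, and 8 of 10 for NEPs relative to apoDBs. The exceptional pair in spheroids, named after its values were seen, was Mrpl57 at -0.86 and Ska3, a gene of chromosome segregation whose start lies 49 bases away, at 2.32 (FDR 2.98e-05). Mrps5 and Zfp661, with starts 128 bases apart, both fell, at -1.12 and -2.44 (FDR 1.72e-05). Mrpl13 and Mtbp both rose, at 0.79 and 1.35 (FDR 0.000164). The start regions of Mrpl46 and Mrps11 overlap, so both partners are members and the pair counts for each, and with NEPs against vehicle Mrpl46 had a log2 fold change of 0.48 (FDR 0.000529) and Mrps11 of 0.09 (FDR 0.509). The exons of 18 members overlap those of other genes over more than 10% of their length, and whether reads were counted by strand is not stated.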

How the data were processed

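RNA was extracted with the Zymo Quick-DNA/RNA Miniprep kit and sequenced on an Illumina NextSeq, and the authors quantified and compared it with the CCBR Pipeliner and limma. Every value reported rests on 4 limma tables that the authors deposited, which hold the results of their own comparisons and nothing else. The fold change deposited there is a signed score (for a decrease, minus the factor by which the gene fell), and the deposited p-value is not adjusted. The submitters' processing notes name mm9, whereas 99.9% of the identifiers are in GENCODE M21 (GRCm38), from which positions were taken. The aligner, counting, filters and normalization are not given in the sources used here, and the depth is unknown.

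Samples were grouped by treatment, genotype and culture in the labels. Tables were joined by Ensembl identifier without version, and 72 of the 77 members had the version of M21. Fold changes were converted to log2, and p-values were adjusted over each whole table (Benjamini-Hochberg). No model was refitted. Named genes are the 5 highest and 5 lowest called members of each comparison, the stalk and S18 proteins, Mrps30, Mrps36, Mrpl58, and up to 3 called genes per list and direction in spheroids, to which Nrf1 was added after its value was seen. The members and lists were chosen with earlier results of these data known, and Mrpl55 was moved to the list particular to mitochondria afterwards. Alternatives were other FDR limits, size limits, Benjamini-Yekutieli adjustment, centring, the mean, and joining by symbol. Python 3.11.15, numpy 2.4.6, pandas 2.3.3, scipy 1.17.1 and matplotlib 3.10.9 were used, and the code was tested on simulated data.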

Additional observations from a re-analysis of the deposited data

How the results depend on the processing

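Counts of called members, given as higher and lower, depended on the limit, and the tables allow no call to be recomputed from samples. At an FDR below 0.01 they were 18 and 2 for NEPs and 16 and 3 for apoDBs relative to vehicle, 13 and 17 with NEPs against apoDBs, and 5 and 6 in spheroids. Benjamini-Yekutieli adjustment gave 16 and 2, 9 and 3, 10 and 13, and 5 and 3 in the same order. An FDR below 0.0001 left 2 and 0, 0 and 0, 1 and 1, and 0 and 0. A fold change of at least 1.5 with an FDR below 0.05 left 3 and 0, 1 and 0, 1 and 2, and 8 and 7, and the study's limits (a log2 fold change over 2 in size, FDR below 0.0001) left 0 in every comparison and direction. An unadjusted p below 0.05 gave 30 and 10, 37 and 5, 19 and 27, and 17 and 12, each within 1.5 times the main count. Apart from the study's limits, the shares of all genes at these other limits were not computed. The counts there cannot be set beside all genes.

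Centred on all genes, the median log2 fold change of the members was 0.15, 0.19, -0.0045 and 0.12 in the same order. Without centring it was 0.09, 0.20, -0.06 and 0.04. These shifts, and those with the mean over members and with the other sets and join, were smaller than the SD over members (0.22 to 0.43). That SD is larger in size than each uncentred median, so a median could vanish or change sign within this limit. Centring turned the direction of none of the called genes named. No paired analysis was possible because the tables carry no value per sample. Leaving out a replicate, another normalization and a filter on low counts were not run for the same reason, and no depth or replicate spread limits can be given.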
